A study of Mus musculus with 4 samples.

Results

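The Ly6 gene cluster on mouse chromosome 15 was examined through 7 of its genes, Ly6a, Ly6c1, Ly6c2, Ly6d, Ly6e, Ly6i and Ly6k, among the 21883 protein-coding genes of the RefSeq table of the mm10 assembly. A Runx3 peak was assigned to a gene when its summit, the position of highest coverage, lay in the gene span or within 20 kb of either end. By this rule 3 of the 13166 ChIP peaks and 5 of the 15891 CUT&RUN peaks were assigned to the 7 genes, and each could be assigned to more than 1 gene because neighbouring windows overlapped. Ly6e, Ly6i, Ly6a and Ly6c2, 4 of the 7 genes (57.1%), had a peak in both assays, against 46.7% of all protein-coding genes in ChIP and 51.4% in CUT&RUN, and Ly6d, Ly6k and Ly6c1 had a peak in neither. No summit lay inside any of the 7 gene spans. In both assays the strongest of the assigned peaks lay 4.6 kb from Ly6c2.

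The study mapped Runx3 in CD8 T cells isolated with magnetic beads from the spleens of wild type adult mice, with 1 library per group. The ChIP library (chromatin immunoprecipitation) was made from 50000000 frozen cells pooled from 5 mice. The CUT&RUN library, in which an antibody guides a nuclease to its target, came from 150000 fresh cells of 1 mouse, and in both the rabbit serum against Runx3 was diluted 1 in 200. A whole cell extract served as the control of the ChIP peak calls, and a CUT&RUN library with normal rabbit serum was not analysed here. Because each assay had 1 library, no test between the assays was possible, and assay, cell number, freezing, mice and peak calling settings cannot be told apart. In a bulk preparation, binding in fewer cells and weaker binding in each cell cannot be told apart either.

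After duplicate removal the ChIP list rested on 9532996 fragments and the CUT&RUN list on 14068364. All 6 T cell markers examined (Cd8a, Cd8b1, Cd3d, Cd3e, Cd3g and Trac) had a summit within 20 kb in both lists. So did 2 of 4 B cell markers and 1 of 2 erythroid markers, while 0 of 4 myeloid markers had one in ChIP and 1 of 4 in CUT&RUN. Over all protein-coding genes the share with a summit within 20 kb was 46.7% in ChIP and 51.4% in CUT&RUN. A peak is binding and not expression, so the marker counts do not measure purity, and expression of the Ly6 genes was not measured.

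Ly6 genes encode small, cysteine-rich proteins that are mostly held on the cell surface by a glycosylphosphatidylinositol anchor, and they arose by tandem duplication. On lymphocytes they serve as antigens of activation and differentiation: Ly6C, the product of Ly6c1 and Ly6c2, is carried by memory CD8 T cells, and Ly6a encodes the stem cell antigen Sca-1, which activated T cells also carry. Runx3, a RUNX family transcription factor, acts in CD8 T cell development and cytotoxic function, and RUNX proteins bind DNA at the letters TGTGGT or TGCGGT.

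The start regions of Ly6c1 and Ly6c2 are shown because these paralogs differed in whether a Runx3 peak lay nearby, and that of Ly6a2 because this neighbour is a near copy of Ly6c2 here. The sequences are from RefSeq on GRCm38.p6 (mm10), cover 250 bases before to 50 bases after a transcription start, lie on the minus strand and are printed 5′ to 3′ along that strand. They are chr15:75048788-75049087 for Ly6c1, chr15:75111922-75112221 for Ly6c2 and chr15:75135079-75135378 for Ly6a2. Capitals mark TGTGGT or TGCGGT on either strand, so that ACCACA is TGTGGT read on the other strand.
Ly6c1: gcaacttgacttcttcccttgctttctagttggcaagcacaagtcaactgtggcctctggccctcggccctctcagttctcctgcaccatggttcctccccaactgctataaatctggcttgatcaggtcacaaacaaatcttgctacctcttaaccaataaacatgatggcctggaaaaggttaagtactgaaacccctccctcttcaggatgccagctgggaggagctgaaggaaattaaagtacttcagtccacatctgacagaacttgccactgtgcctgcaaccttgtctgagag
Ly6c2: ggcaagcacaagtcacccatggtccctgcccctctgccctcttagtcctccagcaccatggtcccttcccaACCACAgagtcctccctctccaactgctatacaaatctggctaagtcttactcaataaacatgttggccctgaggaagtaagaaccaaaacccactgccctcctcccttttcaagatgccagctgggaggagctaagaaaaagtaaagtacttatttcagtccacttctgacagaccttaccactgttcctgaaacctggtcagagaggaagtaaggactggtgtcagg
Ly6a2: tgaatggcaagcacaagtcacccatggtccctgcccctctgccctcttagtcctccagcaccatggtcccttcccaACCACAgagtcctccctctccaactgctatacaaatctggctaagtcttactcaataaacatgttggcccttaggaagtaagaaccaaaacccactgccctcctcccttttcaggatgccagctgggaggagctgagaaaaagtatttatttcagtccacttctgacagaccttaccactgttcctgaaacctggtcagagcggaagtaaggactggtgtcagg

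The Ly6c2 sequence held 1 match, TGTGGT on the opposite strand, 179 bases before the start, and the Ly6a2 sequence held the same match 174 bases before its start. The Ly6c1 sequence held none. Of 32851 such sequences in the table, 22.4% held at least 1 match to either motif. In a global alignment the Ly6c2 and Ly6a2 sequences had 291 identical positions in 305 aligned columns (95.4%), and Ly6c1 and Ly6c2 had 214 in 340 (62.9%). No ChIP or CUT&RUN peak overlapped any of these sequences. Of the 7 genes, 2 had an entry in the table of start regions. For Ly6a, Ly6d, Ly6e, Ly6i and Ly6k, positions are therefore given as distances to the nearest end of the gene.

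Ly6c2 (chromosome 15, 75108161 to 75112066), one of the pair of genes for Ly6C, had a single peak in each list, and the peaks overlapped. The ChIP peak (75116529 to 75116925) had a pileup, the number of fragments over its summit after duplicate removal, of 35 (exact 95% Poisson interval 24.4 to 48.7, counting error only). Its fold over the expected background was 16.9, and it ranked 386 of 13166 by q, in the top 2.93% of its list. The CUT&RUN peak (75116635 to 75116832) had a pileup of 64 (49.3 to 81.7), a fold of 27.1 and a rank of 1417 of 15891, in the top 8.92%. The summits, 75116711 in ChIP and 75116701 in CUT&RUN, lay 10 bp apart, against a median of 35 bp (quartiles 15 and 68 bp) over the 8721 ChIP peaks shared with CUT&RUN. They lay 4.74 and 4.73 kb upstream of the Ly6c2 start whose sequence is shown, between Ly6c2 and Ly6a2 and inside no gene of the table. The expected background at the ChIP peak equalled the median of its list, which was also the lowest value there. At the CUT&RUN peak it was 1.56 times the median.

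Ly6c1 (75044018 to 75048920), the other gene for Ly6C, had no peak within 20 kb in either list. Its nearest summits lay 37.5 kb away in ChIP and 36.7 kb away in CUT&RUN, in the high-background block described below. The position as far upstream of the Ly6c1 start as the Ly6c2 peaks were of theirs had its nearest ChIP summit 32.9 kb away and its nearest CUT&RUN summit 32.1 kb away. At the matching position of Ly6a2 the nearest summit in both lists was the Ly6c2 peak, 23.2 kb away. The start regions of Ly6c2 and Ly6a2 were near copies, at 95.4% identity. Those of Ly6c1 and Ly6c2 were 62.9% identical, and the rest of these genes was not compared. The sources used here do not state how reads that fit several copies were placed. In the file headers, the name of the control alignment speaks of dropping reads with several placements, while that of the ChIP alignment does not. The part of such reads in the difference between Ly6c1 and Ly6c2 was not tested.

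Ly6a (74994877 to 74998031), which encodes Sca-1, had 2 ChIP and 4 CUT&RUN peaks in its window. The summit nearest to the gene was a CUT&RUN summit at 74994644, 0.233 kb from its lower end, with 36 fragments over it (25.2 to 49.8) and a fold of 14.1, in the top 35.9% of the list. Another CUT&RUN summit at 74993945, 0.932 kb from the gene, had 30 fragments (20.2 to 42.8) and a fold of 11.5, in the top 48.9%. Neither overlapped a ChIP peak, and the long noncoding RNA gene Gm41348 spans the one at 74993945. The counting intervals of the pair overlapped. The expected background was 1.82 times the median of the CUT&RUN list at 74994644 and 1.89 times at 74993945.

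Ly6i (74979534 to 74983434), a close relative of Ly6a, shared all of the Ly6a peaks. The ChIP summit at 74988692, between Ly6i and Ly6a and inside the pseudogene Gm8000, lay 5.26 kb from Ly6i and 6.19 kb from Ly6a. It had 11 fragments (5.49 to 19.7), a fold of 5.65 and a rank of 7129, in the top 54.2% of its list. The CUT&RUN summit at 74988666, 26 bp away, had 14 fragments (7.65 to 23.5) with a fold of 8.22 and stood near the weak end of its list, in the top 89.6%. On the other side of Ly6i, 4.20 kb from the gene, the ChIP summit at 74975335 had 10 fragments (4.80 to 18.4), a fold of 5.18, in the top 64.1%. The CUT&RUN summit at 74975385, 50 bp from it, had 14 fragments (7.65 to 23.5), a fold of 9.14, in the top 84.1%. Both of these weaker places were thus called in both assays, while the stronger CUT&RUN pair beside Ly6a was called in that assay alone. The long noncoding RNA gene Gm28068 spans every summit assigned to Ly6i and Ly6a.

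Ly6e (74955025 to 74959904), which encodes the thymic shared antigen TSA-1, had 1 peak in each list. It was the pair at 74975335 and 74975385, 15.4 and 15.5 kb from Ly6e and nearer to Ly6i. Just outside the limit of 20 kb on the other side of Ly6e, the ChIP summit at 74934338 lay 20.7 kb from the gene (pileup 9, 4.12 to 17.1) and that at 74933896 lay 21.1 kb away (pileup 7, 2.81 to 14.4). The CUT&RUN summits there, at 74934269 and 74934025, had pileups of 31 (21.1 to 44.0) and 33 (22.7 to 46.3), and all 4 lay inside the long noncoding RNA gene Gm39556. Farther out, 36.3 kb from Ly6e, the pileup was 42 (30.3 to 56.8) at the CUT&RUN summit 74918672 and 10 (4.80 to 18.4) at the ChIP summit 74918684. Just inside the limit was the pair at 74975335 and 74975385 relative to Ly6a, 19.5 kb from that gene.

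Ly6d (74762056 to 74763567), known as the marker ThB of early B lineage cells, and Ly6k (74796874 to 74799968), which acts in male fertility, had no peak in their windows. The summits nearest to both were at 74721060 in ChIP and 74721114 in CUT&RUN. These lay 41.0 and 40.9 kb from Ly6d, and about 75.8 kb from Ly6k in both lists. Over all protein-coding genes the median distance to the nearest summit was 26.5 kb in ChIP and 17.5 kb in CUT&RUN, and 34.9% and 32.2% of genes lay at least as far from a summit as Ly6k. The median over the 7 Ly6 genes was 15.4 kb in ChIP and 15.5 kb in CUT&RUN.

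**Figure D1:**
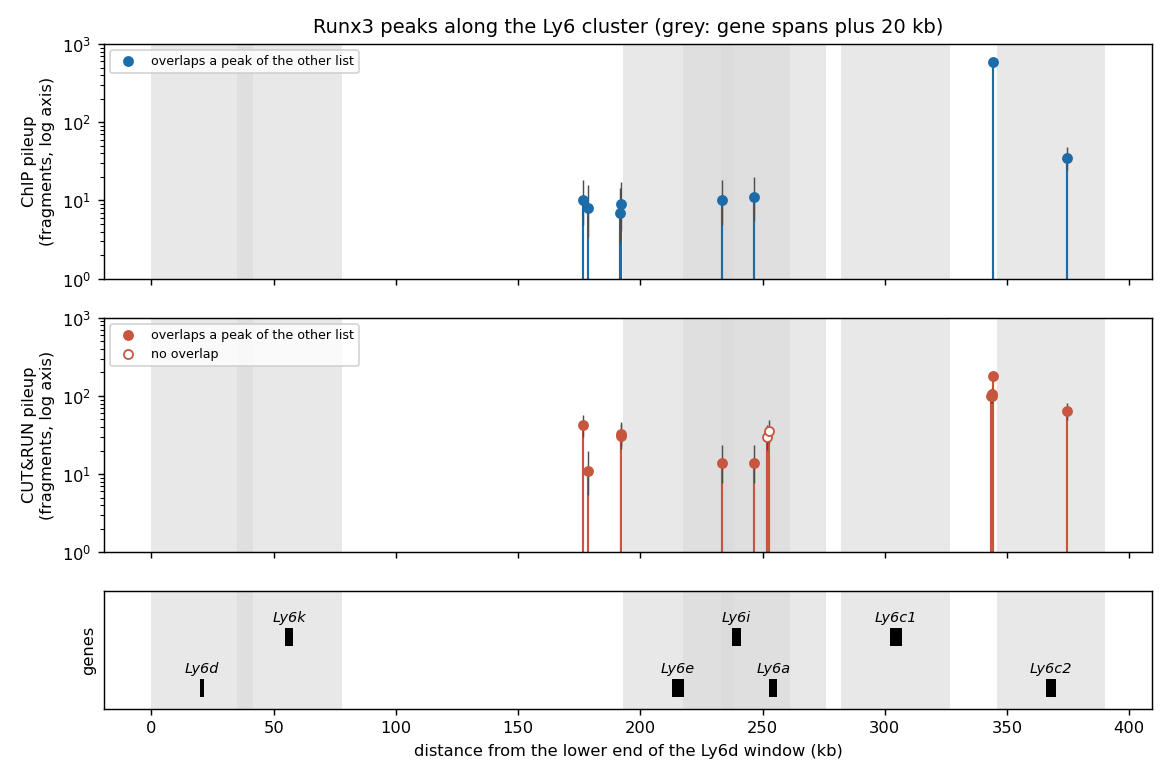
Summit pileup (fragments, log axis, with exact 95% Poisson intervals) of every ChIP peak (top) and CUT&RUN peak (middle) along the Ly6 cluster, against distance in kb from the lower end of the Ly6d window, with the 7 gene spans below and the windows of span plus 20 kb in grey. Ly6d, Ly6k and Ly6c1 have no peak in their windows, the 2 open points beside Ly6a are the CUT&RUN peaks without a ChIP peak, and the tallest peaks, up to 585 fragments in ChIP, stand between the Ly6c1 and Ly6c2 windows.

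The tallest peaks of the region lay in none of the windows. Between Ly6c1 and Ly6c2, the ChIP peak from 75085510 to 75086962 reached 585 fragments (538 to 634) with a fold of 2.79, and its expected background was 186 times the median of the list. At this block CUT&RUN had 4 peaks, with pileups of 99, 105, 101 and 179 and backgrounds 14.27 to 14.30 times the median. The highest CUT&RUN summit and the ChIP summit were both at 75086432, 21.7 kb from Ly6c2 and 1729 bp outside its window. The ChIP background was estimated with the whole cell extract as control. CUT&RUN was called with no control, so its background came from the same library as its peaks. The raised background and the tall peaks stood together at this block, and the part of the one in the other was not tested. All 3 ChIP peaks in the windows had a background equal to the list's median. That median, 1.125, was also the lowest value in the ChIP list, so it does not set these peaks apart.

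The 4 Ly6 genes with a peak made up a share near that of all protein-coding genes, so the count is not a result about the Ly6 genes. Each of the 4 had a ChIP peak shared with CUT&RUN, that is, overlapping a peak of the other list, against 37.6% of protein-coding genes. The Ly6 genes are at most 4.90 kb long, and of the 5034 protein-coding genes of 5 kb or less, 27.9% had a ChIP summit and 31.1% a CUT&RUN summit within 20 kb. The 4 genes are not independent, since Ly6e, Ly6i and Ly6a shared 1 ChIP peak and rested on 2 ChIP peaks in all. With gene spans alone, 0 of 7 Ly6 genes had a summit, against 22.4% of protein-coding genes in ChIP and 24% in CUT&RUN. At 10 kb it was 3 of 7 (Ly6i, Ly6a and Ly6c2), against 40.2% in ChIP and 45.1% in CUT&RUN. At 50 kb it was 6 of 7, with Ly6d and Ly6c1 added, against 58.9% and 62.4%.

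**Figure D2:**
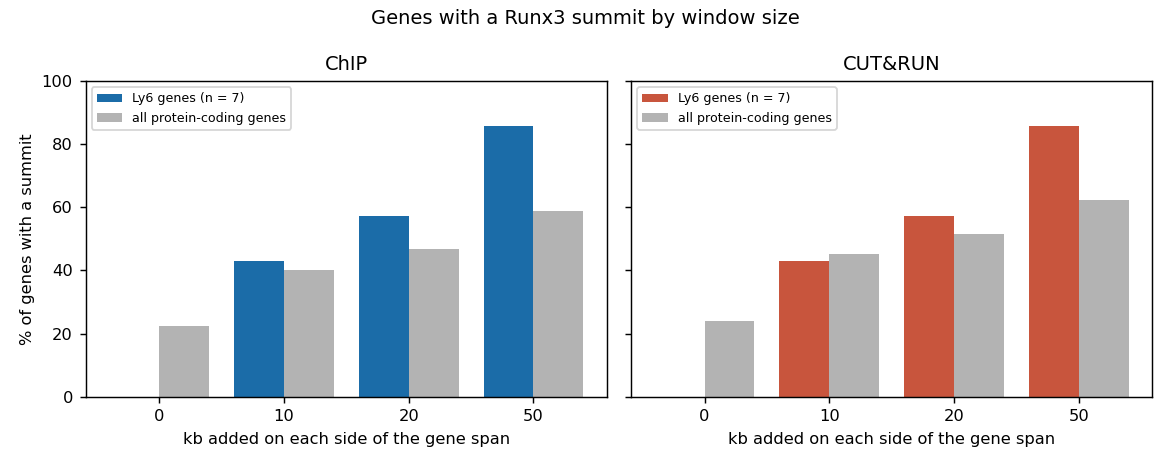
Percentage of genes with a ChIP summit (left) or CUT&RUN summit (right) when 0, 10, 20 or 50 kb is added on each side of the gene span, for the 7 Ly6 genes (coloured bars) and all 21883 protein-coding genes (grey bars). No Ly6 gene had a summit in its span, and the Ly6 share went from 42.9% at 10 kb to 57.1% at 20 kb and 85.7% at 50 kb in both assays.

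Within each list the Ly6 peaks were of unequal height. The pileups of the 3 ChIP peaks were 10, 11 and 35, against a median of 12 over the list (quartiles 9 and 17), so that only the Ly6c2 peak stood above the upper quartile. The pileups of the 5 CUT&RUN peaks were 14, 14, 30, 36 and 64, against a median of 25 (quartiles 17 and 41). Here too only the Ly6c2 peak stood above the upper quartile. All 3 ChIP peaks overlapped a CUT&RUN peak, as did 66.2% of all ChIP peaks, and 3 of the 5 CUT&RUN peaks overlapped a ChIP peak, as did 58.8% of all CUT&RUN peaks.

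**Figure D3:**
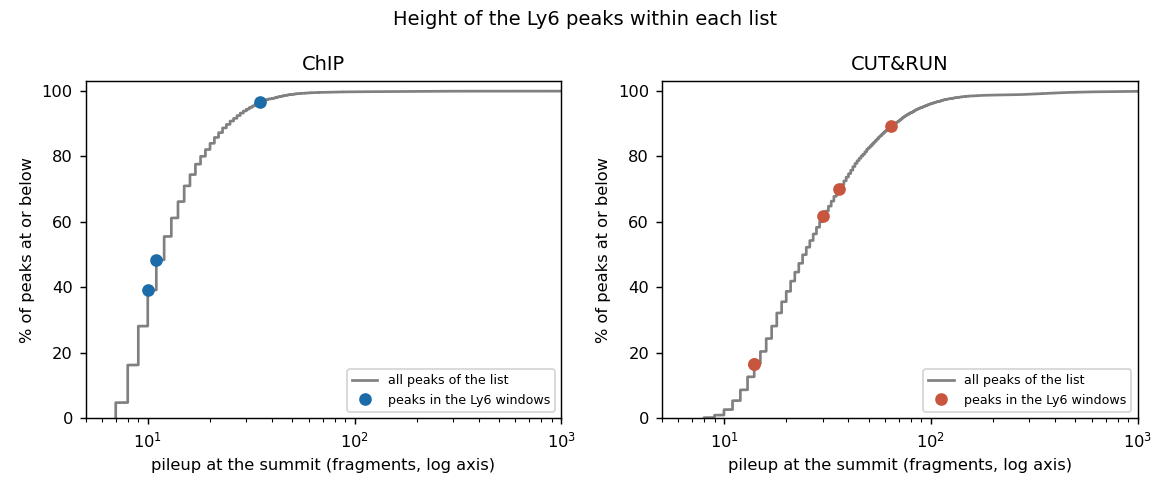
Percentage of peaks at or below a given summit pileup (fragments, log axis) in the ChIP list (left) and the CUT&RUN list (right), with the peaks assigned to the Ly6 genes as points on the curve. The Ly6c2 peaks, at 35 and 64 fragments, sit in the upper part of each curve, and the other points run from 10 to 11 in ChIP and from 14 to 36 in CUT&RUN, where the peaks at 14 coincide.

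Other genes of the LY6/uPAR family, which share the cysteine-rich domain, were measured in the same way. Of 16 listed for the chromosome 15 cluster, 15 matched the table (not Ly6s), and 5 had a summit within 20 kb in each assay: Ly6a2, Lypd2, Slurp1, Psca and Gpihbp1. This is 33.3%, against 46.7% of all protein-coding genes in ChIP and 51.4% in CUT&RUN. Most of these family genes are short, and among protein-coding genes of 5 kb or less the shares were 27.9% and 31.1%. The value thus lay below the share of all genes but not below that of short genes, and no difference was tested. Ly6a2 had only the Ly6c2 peak, 14.6 kb from it. Gpihbp1, which carries lipoprotein lipase across capillary endothelium, had a shared peak with pileups of 23 (14.6 to 34.5) in ChIP and 55 (41.4 to 71.6) in CUT&RUN, 18.4 and 18.3 kb from the gene. Lypd2, Slurp1 and Psca had the pair at 74721060 and 74721114, with pileups of 9 and 21, and Slurp1 and Psca also had a ChIP peak at 74709560 (pileup 12, 6.20 to 21.0) without a CUT&RUN peak. Ly6g, the neutrophil antigen, had none, nor had Ly6f, Ly6g2, Ly6h, Ly6l, Ly6m, Lynx1, Slurp2, Gml and Gml2.

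Of 19 family genes on other chromosomes, 13 had a summit within 20 kb in each assay, and 10 had a ChIP peak shared with CUT&RUN (68.4% and 52.6%, against 46.7%, 51.4% and 37.6% of all protein-coding genes for a ChIP, a CUT&RUN and a shared peak). Several are neighbours with 1 peak between them: Ly6g6d, Ly6g6e and Ly6g6f had the same ChIP summit at 35089187 on chromosome 17, and Ly6g5b and Ly6g5c had the same best summit at 35121382. Plaur, the receptor of the urokinase plasminogen activator, had the strongest, 3.1 kb from the gene, with a ChIP pileup of 72 (56.3 to 90.7; rank 25) and a CUT&RUN pileup of 190 (164 to 219; rank 71). Lypd5 followed, with pileups of 38 (26.9 to 52.2) and 145 (122 to 171) at summits 15.7 kb away. The expected background of the CUT&RUN peak was 4.42 times the list's median at Plaur and 5.18 times at Lypd5. The latter is above the 5 times used here to mark high-background peaks. Lypd3 had 24 (15.4 to 35.7) and 92 (74.2 to 113), 4.1 kb away. Spaca4, a sperm acrosome protein, had a best ChIP pileup of 35 (24.4 to 48.7), the same as Ly6c2. Cd59a and Cd59b, which protect cells from complement, had no peak.

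The highest peaks of the Gimap and Oas genes, the other tandem families compared, were taller than that of the Ly6 genes in the same libraries. Median heights did not all differ in this way. For Ly6, Gimap and Oas in turn, the median pileups were 11, 11 and 42.5 in ChIP, and 30, 33 and 22 in CUT&RUN. All 8 Gimap genes, which encode GTPases of lymphocytes, had a summit within 20 kb in both lists, and their windows held 16 ChIP and 13 CUT&RUN peaks, with highest pileups of 58 (44.04 to 74.98) and 222 (194 to 253). Of 11 Oas genes, which encode oligoadenylate synthetases and their relatives, 3 had a ChIP summit and 4 a CUT&RUN summit. Their windows held 2 and 5 peaks, near the 3 and 5 of the Ly6 genes, with highest pileups of 75 (59.0 to 94.0) and 162 (138 to 189). Over all protein-coding genes the share with a summit was 46.7% in ChIP and 51.4% in CUT&RUN. The intervals of the best Ly6 peak, 24.4 to 48.7 in ChIP and 49.3 to 81.7 in CUT&RUN, overlapped those of Oas in neither list and those of Gimap in ChIP but not in CUT&RUN. With counting error alone and no replicates, these remain differences between peaks of 1 library each.

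The 7 windows merged into 4 stretches that cover 250 kb together. The ChIP summits there came to 12.0 per Mb (exact 95% Poisson interval 2.48 to 35.1), against 5.70 per Mb over chromosome 15 up to its last gene. The CUT&RUN summits came to 20.02 per Mb (6.50 to 46.7), against 6.82. Both intervals include the value of the chromosome. Over the whole region of 390 kb from the Ly6d window to the Ly6c2 window, peaks numbered 8 in ChIP and 13 in CUT&RUN. That is 20.5 per Mb (8.86 to 40.4) in ChIP and 33.3 per Mb (17.8 to 57.0) in CUT&RUN, and here both intervals lie above the value of the chromosome. That value is a mean over the chromosome up to its last gene and was not matched for gene density. Without the high-background block between Ly6c1 and Ly6c2, 7 and 9 peaks were left, or 17.9 per Mb (7.22 to 37.0) and 23.1 per Mb (10.6 to 43.8). The peaks came in groups and the region was bounded with results known, so these intervals cover counting error only. The lowest was the CUT&RUN summit at 74918672, so that the stretch with Ly6d and Ly6k held none.

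By best rank in both lists, the gene with the pattern most like that of Ly6c2 was Ly6a2, through the same peak. Next came Lonp1, a mitochondrial protease, and Micos13, a subunit of the complex that shapes mitochondrial cristae, with best ranks of 394 in ChIP and 1413 in CUT&RUN, against 386 and 1417 for Ly6c2. Rpl36 and Safb tied with them, since these neighbours on chromosome 17 have the same best ranks. Likeness was the distance between log10 ranks over 2 libraries, among 9085 protein-coding genes with a summit in both lists.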

How the data were processed

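The submitters' processing notes name Bowtie, MACS2 and mm10. No Bowtie version was given in the sources used here. MACS2 2.1.1.20160309, per the file headers, used paired-end fragments and kept 1 per position. ChIP peaks were called with the whole cell extract as control (63885311 fragments kept) at q of 0.05, and CUT&RUN peaks at q of 1e-05 with none, on an alignment named for nucleosome-free fragments. Each library was called alone, and of 48285251 ChIP fragments 9532996 were kept, of 17896991 CUT&RUN fragments 14068364. The deposited lists give each peak's pileup (a coverage signal), −log10 p and −log10 q, and the fold, a ratio of pileup to expected background; all are the authors' values and were used only within a list.

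Peaks were ranked by q, then pileup, then peak number. The expected background was computed as pileup plus 1, divided by the fold, minus 1, since the peak caller adds 1 to both; the lowest value in CUT&RUN, 0.4735, lay beside a genome-wide rate of 0.474 fragments from the file headers. Overlap was at least 1 bp. Genes came from the RefSeq table of GRCm38.p6 (49939 genes on assembled chromosomes). Intervals are exact 95% Poisson intervals for counting error only, and PCR fragments are not independent molecules. No p-value is given. Start regions were scanned for TGTGGT and TGCGGT on both strands and aligned globally with Biopython 1.88. Counting was tested on simulated peaks. Named genes were the 7 members, genes at their peaks, a LY6/uPAR family list, the Gimap and Oas genes and the 3 genes nearest in rank. Members and lists were chosen with earlier results of these data known. Alternatives were other windows, q thresholds, overlap rules and ranking measures; the one without high-background peaks was chosen after seeing the data.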

Additional observations from a re-analysis of the deposited data

How the results depend on the processing

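Of 44 alternative values, 21 stayed within 1.5 times the reported one and 23 did not. With gene spans alone, every count of summits, shared peaks and members was 0. At 10 kb all of these counts were within 1.5 times. At 50 kb there were 9 ChIP and 14 CUT&RUN summits, 9 and 12 of them shared; without peaks over 5 times the median background, these were 8 and 10, with 8 and 8 shared. Ly6c1 then lost its ChIP peak, and members with a ChIP summit went from 6 to 5. With both lists at q of 1e-10 or less, 1 ChIP summit was left, at Ly6c2, with 1 shared peak in each list and 1 member with a ChIP summit. Among peaks ranked above the middle of each list, there were 1 ChIP and 3 CUT&RUN summits, 1 shared in each list, and 1 member with a ChIP summit. Stricter overlap rules left 3 shared peaks in each list. The best Ly6c2 ranks were 352 to 475 in ChIP and 985 to 1742 in CUT&RUN by other ranking measures. No paired analysis was possible because each group had 1 library, so no library could be left out either. Depth limits the weakest peaks, whose pileups of 10 to 14 have wide counting intervals, and a place without a peak is one where none was called at this depth.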
